A study of Mus musculus with 24 samples.

Results

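The 38 genes described here run the cell cycle, from the D-type cyclins of early G1 to the kinases of mitosis, and their chromatin accessibility was read by ATAC-seq in bone marrow-derived macrophages (BMDMs) of mice with and without the aryl hydrocarbon receptor (AhR). The genes were chosen by name and function, with earlier results of these data known. A consensus peak, that is, an open region merged from the peaks of the single libraries and then counted in all of them, was taken when it overlapped the body of 1 of these genes or the 5 kb upstream of it in the GENCODE vM21 annotation of mm10, and was given to the nearest of them. This gave 197 of the 184158 peaks of the series. Of these, 41 covered the annotated start of a protein-coding transcript of the gene and are called TSS peaks, and 156 did not and are called other peaks. Each of the 38 genes had a TSS peak, and all 41 TSS peaks passed the filter on low counts. Ccnd3 had 3 of them, Myc had 2, and in both the peak with the highest mean level is called the main TSS peak. Among the other peaks 147 passed the filter, and the 9 that did not lay in Rb1 (4 peaks), Cdk6 (2 peaks) and Mcm3, Cdk1 and E2f7 (1 peak each). No other peak was found for 10 of the genes (Ccna2, Ccnb1, Ccne1, Ccne2, Cdkn2c, Cdc20, Plk1, Bub1, Mcm6 and Pcna).

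The 24 libraries formed 4 groups of 6, WT and AhR-KO cells that were left unstimulated and WT and AhR-KO cells stimulated with LPS. Per the study's methods, WT marrow came from C57BL/6J mice and AhR-KO marrow from the B6.129-Ahr tm1Bra/J strain, the 6 libraries of a group came from 6 animals, all libraries came from 1 experiment, and the mice were adults of both sexes. The knockout is carried by all cells of the animal, so the marrow progenitors that entered the culture lacked the receptor too. All cultures had 10% serum, GM-CSF at 10 ng/ml and TGF-β at 2 ng/ml, a mixture meant to make the cells resemble alveolar macrophages. LPS, the bacterial lipopolysaccharide, came on day 6 for 24 h, at 97 EU/ml, and a calcium ionophore at 5 µM for the last 10 min. The labels attach this text, LPS included, to every library, so what the unstimulated cultures received besides the growth factors is not told apart there. The p-values measure the spread between animals of this 1 experiment.

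As background, D-type cyclins with Cdk4 or Cdk6, and then cyclin E with Cdk2, phosphorylate the retinoblastoma protein Rb1, which frees E2F factors to switch on the genes of DNA replication. Later in the cycle the MuvB complex with B-Myb and Foxm1 switches on the mitotic genes through a promoter element called CHR, often next to CCAAT boxes bound by NF-Y. Macrophages in culture grow from dividing marrow progenitors under GM-CSF, which keeps Myc and D-type cyclin genes active, and LPS is known to stop the division of growing macrophages. Accessibility at a start site is not a measure of transcription, and many cell-cycle promoters stay open whether or not the gene is being transcribed.

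Promoter sequences of 29 of the 38 genes were matched by symbol in RefSeq (GRCm38.p6), and Aurkb, Ccna2, Ccnd1, Ccnd2, Ccne2, Foxm1, Mcm4, Myc and Rb1 were not matched. Windows ran from 250 bases before the start to 50 after it and were searched on both strands. The E2F motif (TTTCCCGC, TTTGGCGC or TTTCGCGC) was found in 10 of the 29 windows (34.5%), against 1.84% of all 32851 promoters and 3.57% of the 13897 promoters that lay in a TSS peak of this series. The CHR motif (TTTGAA or TTCGAA) was found in 11 (37.9%, against 19.2% and 13%), and the NF-Y motif (CCAAT) in 21 (72.4%, against 37.4% and 37.0%). The core of the AhR binding site (GCGTG) was found in 14 (48.3%), between the share of all promoters (32.4%) and that of promoters in a TSS peak (52.4%). Matches of different motifs overlapped in 1 place. The 250 bases before the start are printed 5′ to 3′ for 4 genes, with these motifs in capitals: Cdk1, which held the E2F, CHR and NF-Y letters together, and Mcm7, E2f2 and Ccnd3, whose TSS peaks changed with LPS. E2f2 has its E2F match after the start, outside the printed stretch, and Ccnd3 had none of the 4 motifs in the printed stretch.
Cdk1 (chr10:69352913-69353162, minus strand): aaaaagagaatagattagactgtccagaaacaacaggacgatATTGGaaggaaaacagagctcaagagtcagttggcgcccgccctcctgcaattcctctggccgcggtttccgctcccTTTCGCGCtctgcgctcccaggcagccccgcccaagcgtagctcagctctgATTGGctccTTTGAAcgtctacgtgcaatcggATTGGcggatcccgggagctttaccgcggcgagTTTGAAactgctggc
Mcm7 (chr5:138171884-138172133, minus strand): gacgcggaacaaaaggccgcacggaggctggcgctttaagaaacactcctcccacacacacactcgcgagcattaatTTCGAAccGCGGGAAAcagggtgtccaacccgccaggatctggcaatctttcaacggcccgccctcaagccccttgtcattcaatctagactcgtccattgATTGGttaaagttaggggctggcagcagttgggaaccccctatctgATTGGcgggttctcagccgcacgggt
E2f2 (chr4:136172024-136172273, plus strand): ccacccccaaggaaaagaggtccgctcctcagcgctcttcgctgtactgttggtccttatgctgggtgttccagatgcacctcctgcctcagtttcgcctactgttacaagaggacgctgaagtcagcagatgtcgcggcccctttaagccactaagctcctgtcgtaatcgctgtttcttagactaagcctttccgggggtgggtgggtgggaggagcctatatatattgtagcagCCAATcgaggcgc
Ccnd3 (chr17:47504801-47505050, plus strand): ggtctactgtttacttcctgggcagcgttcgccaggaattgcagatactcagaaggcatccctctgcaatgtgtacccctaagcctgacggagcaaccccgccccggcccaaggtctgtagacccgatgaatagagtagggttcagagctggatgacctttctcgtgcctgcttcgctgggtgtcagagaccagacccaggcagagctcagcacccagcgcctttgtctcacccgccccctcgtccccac

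Outside the promoters, the centres of 3 intron peaks are printed, with no capitals, because they were among the largest changes of the peaks described: a Cdk6 peak that opened with LPS, a Cdk6 peak that was lower in AhR-KO with LPS, and an E2f7 peak that was lower in AhR-KO without it. None of these 3 stretches of 300 bases held the letters GCGTG on either strand.
Cdk6, 51 kb into the gene (chr5:3394726-3395025, plus strand): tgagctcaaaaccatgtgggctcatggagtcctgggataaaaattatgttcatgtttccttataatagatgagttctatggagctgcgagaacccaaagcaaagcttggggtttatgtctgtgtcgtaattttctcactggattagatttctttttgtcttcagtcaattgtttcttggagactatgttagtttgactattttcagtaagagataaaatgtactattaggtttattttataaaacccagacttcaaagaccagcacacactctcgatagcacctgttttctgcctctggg
Cdk6, 134 kb into the gene (chr5:3477910-3478209, plus strand): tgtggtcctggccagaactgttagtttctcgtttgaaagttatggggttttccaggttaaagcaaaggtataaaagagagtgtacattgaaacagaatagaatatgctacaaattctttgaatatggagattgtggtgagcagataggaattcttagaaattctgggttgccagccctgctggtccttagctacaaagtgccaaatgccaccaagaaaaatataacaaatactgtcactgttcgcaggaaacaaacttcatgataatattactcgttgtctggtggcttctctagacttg
E2f7, 5.23 kb into the gene (chr10:110750549-110750848, plus strand): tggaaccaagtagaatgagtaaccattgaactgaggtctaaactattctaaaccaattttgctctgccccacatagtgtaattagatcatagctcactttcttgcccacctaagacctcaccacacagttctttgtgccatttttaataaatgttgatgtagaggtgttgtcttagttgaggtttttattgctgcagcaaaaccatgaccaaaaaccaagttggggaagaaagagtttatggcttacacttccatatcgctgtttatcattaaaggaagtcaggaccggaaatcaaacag

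Counts in consensus peaks totalled 8.54 to 34.6 M per library, lowest in WT unstimulated replicate 5. The TSS peak of Ahr was lower in AhR-KO (log2 fold change -0.78 without LPS, edgeR adjusted p = 2.98e-10, and -0.45 with LPS, adjusted p = 4.52e-06), which does not check the deletion, since an open start can remain in a disrupted gene. Of 11 macrophage markers 10 had a TSS peak, and Spi1 had none. All 6 markers of cycling progenitors had one, against 4 of 7 for neutrophils (none for Mpo, Elane and Ly6g), 4 of 6 for dendritic cells, 2 of 4 for erythroid cells, 2 of 6 for fibroblasts, 0 of 6 for lymphocytes and 0 of 4 for mast cells. A marker was counted as having none when no tested peak covered an annotated start of it, and peaks beside the start were not counted. The share of all protein-coding genes with a TSS peak was not computed, so these counts have nothing to be set beside. In bulk cultures, fewer cells of a type and less open chromatin per cell cannot be told apart.

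The starts of these genes were open in almost every library. A broad peak called on a single library lay over the start in all 24 libraries for 37 genes, and for E2f2, an activator of S-phase genes, in 20 of 24 (5 WT and 6 AhR-KO libraries without LPS, 5 WT and 4 AhR-KO libraries with it). Such calls were counted for these genes only, so no share over all genes can be set beside them. Per kb of main TSS peak, the median level over the genes was 21.1 CPM (counts per M counts in peaks, after TMM scaling), with quartiles of 13.9 and 24.4, against 13.4 with quartiles of 6.44 and 23.1 over the 13458 TSS peaks of all protein-coding genes. The highest levels per kb were those of Ccna2, the cyclin of S phase and G2 (67.9 CPM), Mcm4 and Mcm3 of the replicative helicase (51.4 and 50.8 CPM) and Pcna, the sliding clamp of the polymerase (48.7 CPM). The lowest were those of E2f2 (3.95 CPM), the checkpoint kinase Bub1 (6.41 CPM), the mitotic kinase Aurkb (7.53 CPM) and Ccnd1 (8.58 CPM). The Mcm4 peak also covers the start of Prkdc, the Mcm7 peak that of Ap4m1, the Aurka peak that of Cstf1 and the Foxm1 peak that of Rhno1, and reads of such pairs cannot be told apart.

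With LPS, most starts of cell-cycle genes were lower in both genotypes, mostly by little. In WT, 29 of the 41 TSS peaks (70.7%) were lower at an adjusted p of at most 0.05 and 0 were higher, where 33% of all protein-coding TSS peaks were lower and 14.9% higher. In AhR-KO, 28 (68.3%) were lower and 3 higher, against 42.1% and 19.5%. The median log2 fold change of the 41 peaks was -0.25 in WT and -0.22 in AhR-KO, against -0.07 and -0.11 over all protein-coding TSS peaks. Values were below 0 for 37 peaks in WT and 35 in AhR-KO, where 62.3% and 63.8% of all protein-coding TSS peaks had values below 0. At this threshold 24 peaks were lower in both genotypes, a count that has no share over all genes to set beside it. With loess offsets, which remove trends with peak height, 24 peaks were lower and 4 higher in WT and 20 and 6 in AhR-KO, with medians of -0.17 and -0.11 against 0.00 and -0.02 over all protein-coding TSS peaks. The summed TSS level of the 10 macrophage markers was 172 to 196 CPM in WT and 208 to 259 CPM in AhR-KO without LPS, against 154 to 180 and 158 to 210 CPM with it. That of the 6 cycling progenitor markers was 90.5 to 102 and 76.5 to 87.1 CPM, against 81.4 to 90.3 and 57.9 to 62.9 CPM, in the same order. This sum hides a split. With LPS, Cd34, Myb and Meis1 were lower in both genotypes at an adjusted p of at most 0.05. Kit was higher in both, while Flt3 and Gata2 passed as higher only in WT. Median log2 fold changes of the 6 markers were 0.01 (WT) and -0.01 (AhR-KO). Of the 10 macrophage markers, 6 were lower with LPS and 2 higher at the same threshold in WT, and 7 and 1 in AhR-KO. Their median log2 fold changes were -0.32 (WT) and -0.60 (AhR-KO), farther below 0 than the medians of the 41 cell-cycle peaks. The part of either list in the LPS differences was not tested.

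Few of these shifts reached the size that the study's methods require of a differentially accessible region (DAR), a change of 1.5-fold or more together with an adjusted p no higher than 0.05. In WT 5 TSS peaks were lower DARs and 0 higher, where 10.4% of all protein-coding TSS peaks were DARs in either direction. In AhR-KO 6 were lower and 1 was higher, against a background of 15.9%, or 4 lower and 1 higher with loess offsets. The same 5 peaks were lower in both genotypes: both of Myc, and those of Ccnd1, Ccnd3 and E2f2. This joint count has no share over all genes to set beside it. In 33 of the 38 genes the main TSS peak stayed within 1.5-fold in all 4 comparisons of 2 groups. The plot of the LPS effect at each gene shows this.

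**Figure D1:**
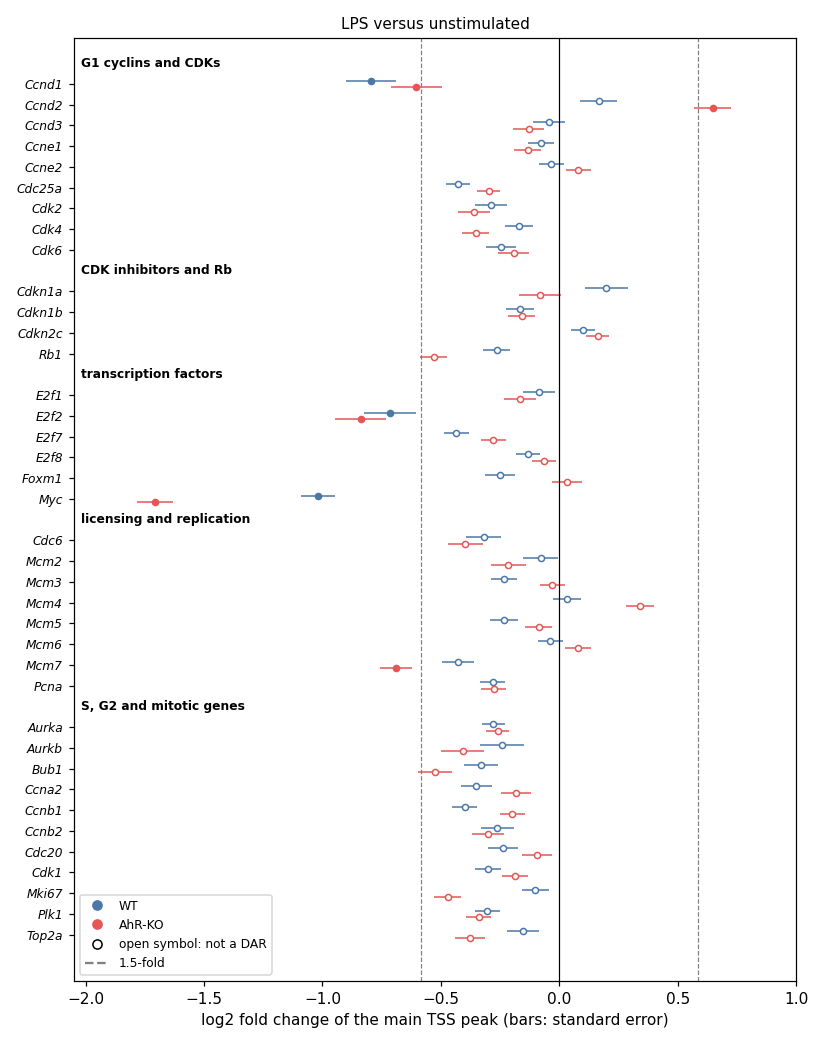
Log2 fold change with LPS at the main TSS peak of each of the 38 genes, ordered by role, in WT (blue) and AhR-KO (red), with standard errors as bars, filled symbols for DARs and dashed lines at 1.5-fold. Most points lie a little to the left of 0 in both genotypes, Myc lies farthest left (-1.02 in WT and -1.71 in AhR-KO), and Ccnd2 lies to the right in AhR-KO (0.65).

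The genes of S phase, G2 and mitosis shifted by small amounts. Of their 11 main TSS peaks 10 were lower with LPS in WT and 10 in AhR-KO at an adjusted p of at most 0.05, with log2 fold changes from -0.40 to -0.10 and from -0.53 to -0.10, and 0 were DARs. Among them, Ccnb1, the cyclin that drives entry into mitosis, changed by -0.40 in WT and -0.20 in AhR-KO. Ccnb2, its relative, changed by -0.26 and -0.30, and Ccna2 by -0.35 and -0.18. The kinase Cdk1 changed by -0.30 and -0.19, the polo-like kinase gene Plk1 by -0.30 and -0.34, and Bub1 by -0.33 and -0.53. The Aurora kinase genes changed by -0.28 and -0.26 (Aurka) and by -0.24 and -0.41 (Aurkb), and Top2a, the topoisomerase gene of S phase and mitosis, by -0.15 and -0.38. The exception in WT was Mki67, the gene of the proliferation marker Ki-67 (-0.10, adjusted p = 0.112), and in AhR-KO it was Cdc20, the activator of the anaphase-promoting complex (-0.10, adjusted p = 0.18). Over all protein-coding TSS peaks, 33% were lower in WT and 42.1% in AhR-KO at an adjusted p of at most 0.05.

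Among the licensing and replication genes, which load and run the helicase, 5 of 8 were lower in WT and 4 in AhR-KO, with 1 higher in AhR-KO. At that threshold 33% of all protein-coding TSS peaks were lower in WT and 42.1% in AhR-KO, and 14.9% and 19.5% were higher. These shares stand beside each role count of main TSS peaks in this paragraph. The helicase subunit gene Mcm7 fell the most, and Cdc6, the helicase loader, fell by 0.32 and 0.40 on the log2 scale. Pcna had values of -0.28 and -0.28, Mcm2 -0.08 and -0.22, and Mcm6 -0.04 and 0.08. Mcm4 was the one that was higher in AhR-KO (0.34, adjusted p = 4.29e-06). Of the 9 G1 cyclin and kinase genes, 5 were lower in WT, and in AhR-KO 6 were lower and 1 higher. Cdc25a, the phosphatase that activates Cdk2, had values of -0.43 and -0.30, and Cdk2 itself -0.29 and -0.36. Its cyclins had values of -0.08 and -0.13 (Ccne1) and -0.03 and 0.08 (Ccne2). Of the 6 transcription factor genes, 5 were lower in WT and 4 in AhR-KO, with values for E2f7, a repressor of the E2F family, of -0.44 and -0.28. E2f1, an activator like E2f2, had -0.09 and -0.17, E2f8, another repressor, -0.13 and -0.06, and Foxm1 -0.25 and 0.03. Of the 4 genes of CDK inhibitors and Rb, which hold the cycle back, 2 were lower in each genotype: Rb1 (-0.26 and -0.53) and Cdkn1b (-0.17 and -0.16), the gene of the inhibitor p27. Cdkn2c, which encodes the Cdk4 and Cdk6 inhibitor p18, was higher in AhR-KO (0.16), and Cdkn1a, the gene of p21, passed in neither (0.20 and -0.08). The Cdkn1a TSS peak was centred 3.73 kb into the gene, over a downstream start, so its values do not describe the outermost start. A peak centred -222 bases from the outermost Cdkn1a start was counted as an other peak. Of the 3 other peaks of Cdkn1a, 2 were higher with LPS by 1.5-fold or more in each genotype and 0 lower. Over all protein-coding genes 26.7% of other peaks were higher in WT and 28.4% in AhR-KO.

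Myc, the growth-promoting transcription factor, had the largest change with LPS among the 41 TSS peaks. Its main TSS peak (chr15:61984324-61986001) had 37.8 to 45.2 (median 41.1) CPM in WT and 30.8 to 35.1 (median 33.4) CPM in AhR-KO without LPS, and 15.6 to 22.9 (median 21.1) CPM in WT and 9.24 to 12.1 (median 9.88) CPM in AhR-KO with it. The 4 groups did not overlap, from WT unstimulated at the top to AhR-KO LPS at the bottom. The log2 fold change with LPS was -1.02 ± 0.0722 (SE, adjusted p = 8.56e-15) in WT and -1.71 ± 0.0767 (SE, adjusted p = 1.11e-20) in AhR-KO. The second peak, over starts farther downstream (chr15:61986434-61988339), had 25.1 to 33.5 (median 29.1) CPM in WT and 24.6 to 30 (median 26) CPM in AhR-KO without LPS, and 15.8 to 20.2 (median 18.3) CPM in WT and 9.20 to 11.8 (median 10.9) CPM in AhR-KO with it. Its log2 fold changes with LPS were -0.66 (adjusted p = 5.38e-10) in WT and, in AhR-KO, -1.32 (adjusted p = 1.26e-17). In that peak the unstimulated groups overlapped and the LPS groups did not overlap each other or the unstimulated groups.

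Ccnd1, Ccnd2 and Ccnd3 encode the D-type cyclins that couple growth factor signals to Cdk4 and Cdk6, and their starts did not move together. Ccnd1 (chr7:144939578-144940448) had 9.44 to 10.7 (median 10.2) CPM in WT and 7.34 to 8.94 (median 8.56) CPM in AhR-KO without LPS, and 4.59 to 7.53 (median 5.59) CPM in WT and 4.43 to 6.42 (median 5.67) CPM in AhR-KO with it. All LPS libraries of a genotype lay below all its unstimulated libraries, with the narrower gap in AhR-KO. Its log2 fold changes were -0.80 ± 0.106 (SE, adjusted p = 3.94e-08) in WT and, in AhR-KO, -0.60 ± 0.108 (SE, adjusted p = 6.82e-06). The AhR-KO call was lost with loess offsets (-0.55) and without AhR-KO unstimulated replicate 5 (-0.58), AhR-KO LPS replicate 3 (-0.57) or AhR-KO LPS replicate 4 (-0.55). In Ccnd3 the fall was at an upstream start (chr17:47504852-47505472), printed above as its promoter, with 12.2 to 16.9 (median 13) CPM in WT and 15 to 18.6 (median 16.8) CPM in AhR-KO without LPS, and 7.15 to 9.97 (median 8.33) CPM in WT and 8.29 to 9.49 (median 9.04) CPM in AhR-KO with it. LPS and unstimulated libraries did not overlap there in either genotype, with log2 fold changes of -0.68 (adjusted p = 8.75e-09) and -0.90 (adjusted p = 4.41e-12). The main Ccnd3 TSS peak (chr17:47593139-47594530), inside the longest transcript, had values of -0.04 and -0.13 and passed in neither genotype.

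Ccnd2 (chr6:127149169-127152889) moved the other way. Its TSS peak had 46.3 to 50.6 (median 48) CPM in WT and 35.4 to 43.2 (median 40.1) CPM in AhR-KO without LPS, and 40.5 to 65 (median 55.5) CPM in WT and 58 to 67.7 (median 61.6) CPM in AhR-KO with it, so that AhR-KO was the lower genotype without LPS and, by medians, the higher with it. LPS raised it in AhR-KO by 0.65 ± 0.0784 (SE, adjusted p = 1.02e-08) on the log2 scale, with no overlap between LPS and unstimulated libraries, and the value in WT was 0.17 (adjusted p = 0.0653), with libraries that overlapped. E2f2 (chr4:136171871-136173654), the least open of the 38 starts, had 7.10 to 10 (median 8.30) CPM in WT and 8.04 to 10.7 (median 9.35) CPM in AhR-KO without LPS, and 4.46 to 6.00 (median 5.19) CPM in WT and 4.05 to 6.69 (median 4.99) CPM in AhR-KO with it. It changed by -0.72 ± 0.109 (SE, adjusted p = 5.30e-07) in WT and -0.84 ± 0.108 (SE, adjusted p = 1.65e-08) in AhR-KO, without overlap between treatments in either genotype. Mcm7 (chr5:138170939-138172477), which shares its peak with Ap4m1, had 40.5 to 47.2 (median 44.6) CPM in WT and 45.9 to 62.1 (median 55.4) CPM in AhR-KO without LPS, and 30.4 to 36.9 (median 31.9) CPM in WT and 30.8 to 36.8 (median 33.5) CPM in AhR-KO with it. Its change was -0.69 ± 0.0665 (SE, adjusted p = 1.75e-11) in AhR-KO, a call that was lost with loess offsets (-0.57), and -0.43 (adjusted p = 8.27e-07) in WT, below the 1.5-fold threshold. The plot of CPM in each library shows these 7 peaks.

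**Figure D2:**
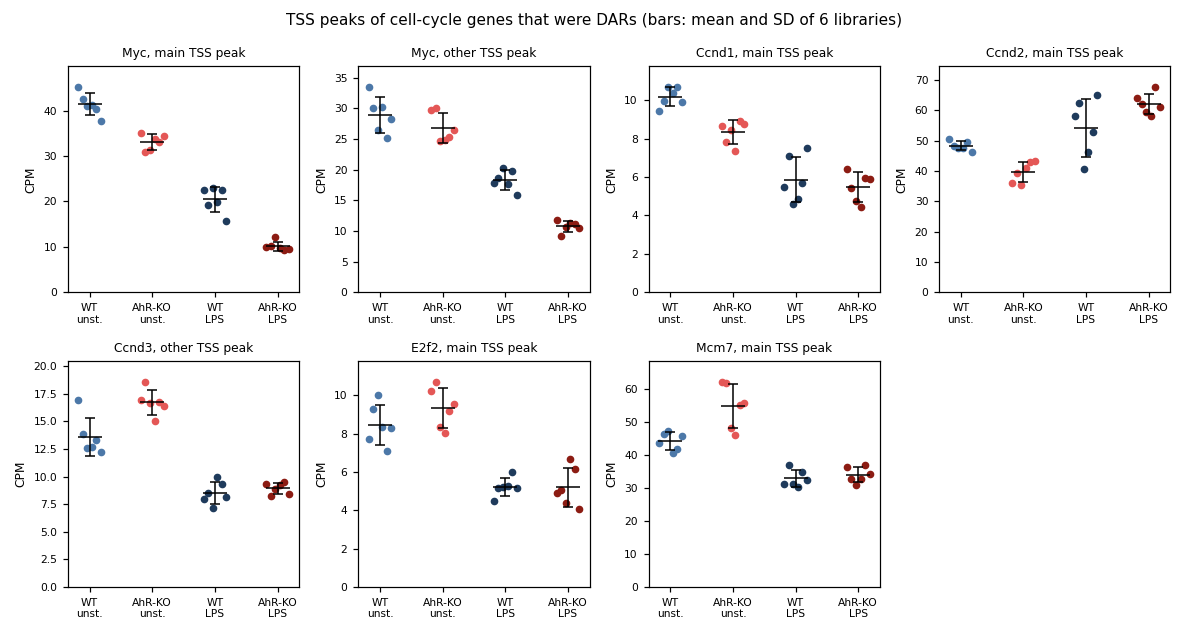
CPM of each library, on axes that start at 0, for the 7 TSS peaks that were DARs in any comparison (2 of Myc and 1 each of Ccnd1, Ccnd2, Ccnd3, E2f2 and Mcm7), with the mean and SD of 6 libraries per group as bars. The AhR-KO LPS libraries are the lowest of all at the main Myc peak (9.24 to 12.1 CPM), and at Ccnd2 they reach 58.0 to 67.7 CPM, above all unstimulated libraries.

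Between genotypes, few TSS peaks of these genes were DARs. Without LPS 0 of the 41 were DARs by edgeR or by DESeq2, where 6.22% of all protein-coding TSS peaks were by edgeR, and 21 had an unadjusted edgeR p under 0.05. At any fold 11 were lower in AhR-KO and 7 higher at an adjusted p of at most 0.05 (43.9%), against 47.7% in either direction, and this split depended on scaling, being 5 lower and 12 higher with RLE size factors and 17 and 5 with loess offsets. The largest values below 0 were those of Cdk6 (-0.45, adjusted p = 8.12e-07), Myc (-0.32, adjusted p = 3.94e-04), Ccnd2 (-0.29, adjusted p = 0.00445) and Ccnd1 (-0.29, adjusted p = 0.0279). The largest above 0 were those of Top2a (0.42, adjusted p = 2.75e-06), Cdk4 (0.39, adjusted p = 1.14e-06), Mcm7 (0.31, adjusted p = 2.96e-04) and the upstream Ccnd3 start (0.30, adjusted p = 0.0034). The median of the 41 peaks was 0.01, against -0.01 over all protein-coding TSS peaks.

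With LPS, 2 TSS peaks were lower in AhR-KO, both of Myc, and 0 were higher, against a DAR background of 6.97%. The main Myc peak differed by -1.01 ± 0.0767 (SE, adjusted p = 1.33e-12), from a median of 21.1 CPM in WT to 9.88 CPM in AhR-KO, and the second by -0.77 ± 0.0754 (SE, adjusted p = 3.44e-10). At any fold 4 were lower (both of Myc, Cdk6 and Mki67) and 3 higher (Cdk4, Ccnd2 and Top2a), together 17.1% against 33.3% of all protein-coding TSS peaks, and 6 lower and 3 higher with loess offsets. Cdk6 differed by -0.39 (adjusted p = 5.02e-06) and Mki67 by -0.36 (adjusted p = 2.22e-06). The median was 0.03, against -0.03. The summed TSS level of the 6 cycling progenitor markers moved with genotype too, without overlap in either treatment, with Kit, Cd34 and Flt3 lower DARs in both treatments. Myb was lower at any fold in both, Gata2 with LPS, and Meis1, the largest part of the sum, was higher without LPS (0.27, adjusted p = 0.00424) and had a value of -0.08 with it (adjusted p = 0.43). The sum of the macrophage markers also separated the genotypes without LPS, 8 of 10 being higher in AhR-KO at any fold, with Marco and Itgax as DARs, and the ranges overlapped with LPS. The part of either list in the genotype differences of the cell-cycle genes was not tested.

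**Figure D3:**
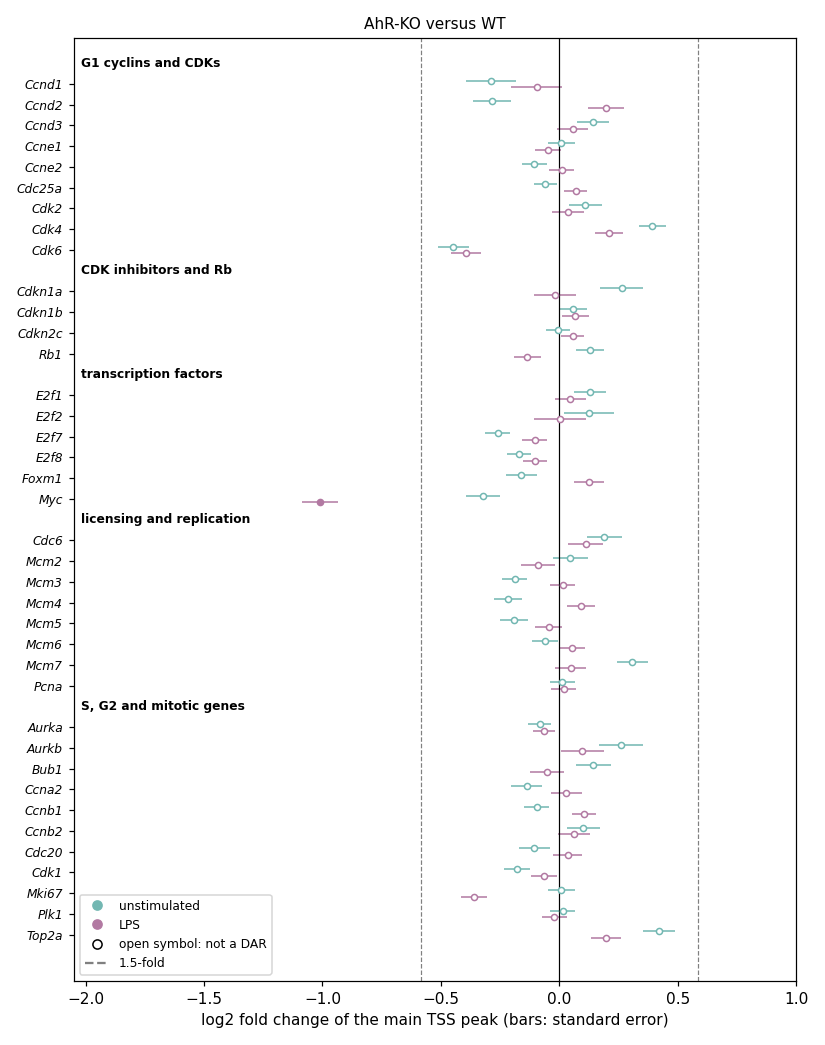
Log2 fold change of AhR-KO against WT at the main TSS peak of each of the 38 genes, ordered by role, in unstimulated and in LPS cultures, with standard errors as bars, filled symbols for DARs and dashed lines at 1.5-fold. Only the Myc point with LPS (-1.01) lies beyond the dashed lines, and Cdk6 lies left of 0 in both treatments (-0.45 and -0.39).

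The interaction, the genotype effect with LPS minus that without it, was a DAR at the 2 Myc peaks among the 41 (background 3.60%). It was -0.69 ± 0.105 (SE, adjusted p = 2.24e-05) at the main peak and -0.65 ± 0.104 (SE, adjusted p = 4.45e-05) at the second, so LPS lowered Myc more in AhR-KO than in WT. At any fold 4 TSS peaks had an interaction below 0 and 3 above (17.1%, against 20.7%), or 6 and 2 with RLE and 5 and 5 with loess offsets. Below 0, besides Myc, were Mki67 (-0.37, adjusted p = 0.0016) and Rb1 (-0.27, adjusted p = 0.0232). Above 0 were Ccnd2 (0.48, adjusted p = 0.00316), Mcm4 (0.31, adjusted p = 0.00969) and Foxm1 (0.28, adjusted p = 0.0274), all of which had a value below 0 in unstimulated AhR-KO against WT. The comparisons share libraries: each group enters 1 genotype and 1 LPS comparison, and the interaction uses all 4.

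A further 65 cell-cycle genes, fixed as a list of the rest of the pathway, all had a TSS peak. With LPS 2 of them were lower DARs in WT (background 10.4% of all protein-coding TSS peaks in either direction), Tyms, which makes thymidylate (-0.62), and the primase gene Prim1 (-0.63). In AhR-KO 4 were lower (background 15.9%): Rrm2 of ribonucleotide reductase (-0.61), the centromeric histone gene Cenpa (-0.76), Birc5, which encodes survivin (-0.86), and Rbl1, a relative of Rb1 (-0.62). With loess offsets Tyms (-0.58), Rrm2 (-0.49) and Rbl1 (-0.52) lost the call, which left 1 DAR in WT and 2 in AhR-KO. By edgeR 0 were DARs between genotypes without LPS, with LPS or in the interaction (backgrounds 6.22%, 6.97% and 3.60%), and 0 by DESeq2, while 43, 18 and 31 had an unadjusted edgeR p under 0.05. At any fold 34 were lower with LPS in WT and 3 higher, where 33% and 14.9% of all protein-coding TSS peaks were. In AhR-KO 34 were lower and 13 higher, against 42.1% and 19.5%, and the medians were -0.15 and -0.14. With loess offsets 21 were lower and 9 higher in WT, against 23 lower and 22 higher in AhR-KO, with medians of -0.05 and -0.02.

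The other peaks, of which 103 of 156 lie in introns, 24 in coding exons, 18 upstream and 11 in UTR exons, changed far more often than the starts, as did those of other genes. With LPS 74 of 147 were DARs in WT (40 lower and 34 higher, 50.3%, against 48.9% of the 93867 such peaks of all protein-coding genes), and 85 in AhR-KO (45 lower and 40 higher, 57.8%, against 50.8%). Of the 147, 33 were lower and 32 higher in both genotypes, where 16.1% and 21.8% of such peaks of all protein-coding genes were. Between genotypes 24 were DARs without LPS (16 lower in AhR-KO and 8 higher, 16.3%, against 23.8%) and 27 with LPS (20 and 7, 18.4%, against 27.1%). In both treatments 11 were lower and 1 higher, where 7.38% and 5.16% of such peaks of all protein-coding genes were. The interaction was a DAR at 16 (8 below 0 and 8 above, 10.9%, against 10.9%), of which the 8 below 0 became 5 without AhR-KO unstimulated replicate 4. In all, 103 of the 147 were DARs in at least 1 comparison, a count that has no share over all genes to set beside it.

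Over all protein-coding genes, 22.2% of other peaks were lower and 26.7% higher with LPS in WT, 22.4% and 28.4% in AhR-KO, between genotypes 13.1% were lower in AhR-KO and 10.7% higher in unstimulated cells, or 14% and 13.1% in LPS cells, and the interaction was below 0 at 5.15% and above at 5.78%. By role, the 17 other peaks of licensing and replication genes had 7 lower and 0 higher DARs with LPS in WT and 7 and 1 in AhR-KO, while the 69 of G1 cyclin and kinase genes had 18 lower and 21 higher in WT and 15 lower and 25 higher in AhR-KO. The 17 of S, G2 and mitotic genes had 3 lower and 2 higher in WT and 8 and 2 in AhR-KO, and the interaction was below 0 at 6 of them. Between genotypes, the G1 group had 11 lower and 0 higher without LPS and 12 and 2 with it, the transcription factors 4 and 0, then 6 and 0, and the S, G2 and mitotic group 0 and 3, then 0 and 1. Of the lower calls of the G1 group, 7 of 11 without LPS and 8 of 12 with it were Cdk6 peaks. These groups differ in how many peaks and genes they hold, and no test compared them. Other peaks of 5 genes also cover the start of another gene (Taf8 in Ccnd3, Necab3 in E2f1, Rhno1 in Foxm1, Tpra1 in Mcm2 and Lpar6 in Rb1).

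Cdk6, the longest of these genes and a G1 kinase also known for its role in blood progenitors, held 39 of the 147 tested peaks. Of these, 10 were lower in AhR-KO in at least 1 treatment (25.6%, against 19.7% of the other peaks of all protein-coding genes) and 5 in both (12.8%, against 7.38%), and 1 was higher, with LPS. They lay together: between 108 and 140 kb into the gene, a stretch chosen after its values were seen, 8 of 9 tested peaks were lower in AhR-KO in at least 1 treatment. For every peak of this stretch, and for the Cdk6 peaks farther in, the nearest protein-coding start was that of another gene. With LPS 28 of the 39 were DARs in at least 1 genotype (71.8%, against 61.7%), 16 of them higher in both (41%, against 21.8%) and 6 lower in both (15.4%, against 16.1%). Without the peaks of Cdk6, a setting added after the data were seen, 108 peaks were left, with 9 lower and 8 higher between genotypes without LPS, 12 and 6 with LPS, 32 and 18 for LPS in WT, and 38 lower and 21 higher for LPS in AhR-KO. The plot of change against distance from the Cdk6 start shows both patterns.

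**Figure D4:**
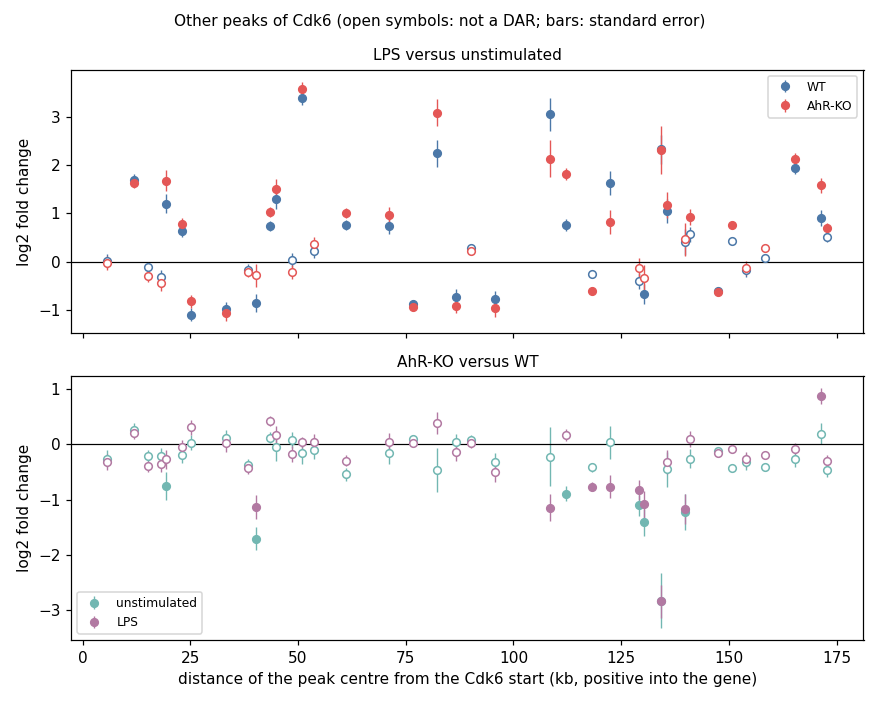
Log2 fold change of the other peaks of Cdk6 against the distance of the peak centre from the Cdk6 start in kb, for LPS against unstimulated in each genotype and for AhR-KO against WT in each treatment, with standard errors as bars and open symbols for peaks that were not DARs. Genotype values below 0 gather between 108 and 140 kb, and the peak at 51 kb has the highest LPS values (3.39 and 3.59).

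The Cdk6 peak at 51 kb (chr5:3394346-3395404, intron), whose centre is printed above, opened with LPS in both genotypes. It had 0.462 to 1.40 (median 0.882) CPM in WT and 0.615 to 1.13 (median 0.834) CPM in AhR-KO without LPS, and 8.21 to 11.7 (median 10.1) CPM in WT and 9.46 to 11.3 (median 10.1) CPM in AhR-KO with it. Treatments did not overlap, and it rose by 3.39 ± 0.146 (SE, adjusted p = 6.35e-21) and 3.59 ± 0.143 (SE, adjusted p = 3.12e-22) on the log2 scale. The peak at 134 kb (chr5:3477685-3478433, intron), also printed above, differed by genotype in both treatments. It had 0.698 to 2.28 (median 1.46) CPM in WT and 0.0869 to 0.307 (median 0.241) CPM in AhR-KO without LPS, and 2.93 to 12 (median 8.62) CPM in WT and 0.651 to 1.63 (median 1.14) CPM in AhR-KO with it. It was lower in AhR-KO, with log2 fold changes of -2.82 ± 0.495 (SE, adjusted p = 5.79e-05) without LPS and -2.83 ± 0.297 (SE, adjusted p = 3.50e-08) with it, and it opened with LPS in both genotypes (2.33 and 2.32). The highest peak of the stretch, at 118 kb (chr5:3460455-3463777, intron), had medians of 50.9 (WT) and 36.8 (AhR-KO) CPM without LPS and 42.4 (WT) and 24.3 (AhR-KO) CPM with it. Its genotype differences were -0.42 (adjusted p = 4.51e-05) without LPS and -0.76 (adjusted p = 1.32e-09) with it.

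Of the other named Cdk6 peaks, that at 40.3 kb was lower in AhR-KO without LPS (-1.71, adjusted p = 2.59e-08, medians 3.25 (WT) and 0.943 (AhR-KO) CPM without LPS and 1.67 (WT) and 0.862 (AhR-KO) CPM with it), and that at 171 kb, in a coding exon, was higher with LPS (0.87, adjusted p = 3.11e-06, medians 0.969 (WT) and 1.12 (AhR-KO) CPM without LPS and 1.81 (WT) and 3.28 (AhR-KO) CPM with it). The peak at 165 kb rose with LPS (1.94 in WT, 2.13 in AhR-KO) and that at 76.7 kb fell (-0.88 and -0.95). At 112 kb the interaction was above 0 (1.06, adjusted p = 6.16e-05), the genotype difference being -0.89 without LPS and 0.17 with it.

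Mki67 was the gene whose other peaks most often had an interaction below 0 as a DAR, 5 of its 7, where 5.15% of other peaks of all protein-coding genes had one. It was picked out by these values. The 7 interactions ran from -1.19 to -0.52 with a median of -0.68, and the threshold was 0.585 either way. As given above, the calls below 0 over all 38 genes became fewer without AhR-KO unstimulated replicate 4. The peak 16.8 kb into the gene (chr7:135699108-135700090, coding exon) had 2.05 to 3.40 (median 2.81) CPM in WT and 5.05 to 6.17 (median 5.34) CPM in AhR-KO without LPS, and 15.3 to 20.5 (median 17) CPM in WT and 10.2 to 18.9 (median 14.9) CPM in AhR-KO with it. AhR-KO was higher without LPS (0.95 ± 0.138 SE, adjusted p = 8.14e-07), the genotypes overlapped with LPS (-0.24), and LPS raised the peak by 2.63 in WT (adjusted p = 2.67e-19) and 1.44 in AhR-KO, an interaction of -1.19 (adjusted p = 1.12e-05). The peak at 11 kb (chr7:135704315-135706460, coding exon) had medians of 17.2 (WT) and 20.1 (AhR-KO) CPM without LPS and 14.3 (WT) and 9.40 (AhR-KO) CPM with it. Its interaction was -0.71 (adjusted p = 3.57e-05). With LPS in AhR-KO 4 of the 7 peaks were lower and 2 higher (22.4% and 28.4% over all protein-coding genes), and in WT 0 and 2 (22.2% and 26.7%).

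Ccnd2 had the opposite sign, with an interaction above 0 at 4 of its 9 other peaks (5.78% over all protein-coding genes). The intron peak at 16 kb (chr6:127134708-127135367) had 1.28 to 2.67 (median 2.08) CPM in WT and 0.541 to 0.912 (median 0.743) CPM in AhR-KO without LPS, and 0.574 to 1.5 (median 1.18) CPM in WT and 1.51 to 1.90 (median 1.61) CPM in AhR-KO with it. AhR-KO was the lower genotype without LPS (-1.48 ± 0.204 SE, adjusted p = 2.74e-07), but under LPS the value had the other sign and was less than 1.5-fold (0.56, adjusted p = 0.012), an interaction of 2.04 (adjusted p = 3.49e-06). Upstream, -2.57 kb from the start (chr6:127153552-127153706), medians were 3.16 (WT) and 1.98 (AhR-KO) CPM without LPS and 2.76 (WT) and 4.18 (AhR-KO) CPM with it, with an interaction of 1.13 (adjusted p = 5.39e-05). The intron peak at 17.8 kb rose with LPS in AhR-KO by 2.34 (adjusted p = 1.61e-15) and in WT by 1.59, with medians of 1.29 (WT) and 1.05 (AhR-KO) CPM without LPS and 3.88 (WT) and 5.45 (AhR-KO) CPM with it. With LPS in AhR-KO 0 of the 9 were lower and 4 higher (22.4% and 28.4% over all protein-coding genes), and in WT 2 and 2 (22.2% and 26.7%).

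E2f7 had 3 of its 6 tested other peaks lower in AhR-KO in each treatment and 0 higher. Over all protein-coding genes 13.1% of other peaks were lower in AhR-KO without LPS and 14% with it, and 10.7% and 13.1% were higher. These shares also stand beside the counts of Ccnd3 and Myc below. The intron peak at 5.23 kb (chr10:110750507-110750890), whose centre is printed above, had 0.931 to 3.07 (median 2.02) CPM in WT and 0.307 to 0.729 (median 0.412) CPM in AhR-KO without LPS, and 0.258 to 0.628 (median 0.514) CPM in WT and 0.122 to 0.406 (median 0.249) CPM in AhR-KO with it. Without LPS it was lower in AhR-KO, at -2.18 ± 0.258 (SE, adjusted p = 1.54e-08) on the log2 scale, and the genotypes did not overlap. With LPS, where it was low in both, the difference was -0.78 (adjusted p = 0.0454). Of the 13 other peaks of Ccnd3, 2 were lower in AhR-KO without LPS and 4 with it, among them the intron peak at 93.4 kb, -1.11 (adjusted p = 2.38e-08) with LPS and -0.39 (adjusted p = 0.00804) without, an interaction of -0.72 (adjusted p = 0.00547). Its medians were 6.26 (WT) and 4.81 (AhR-KO) CPM without LPS and 3.20 (WT) and 1.45 (AhR-KO) CPM with it. Both other peaks of Myc were lower in AhR-KO with LPS. The one -3.68 kb from the start, named here after its values were seen, had medians of 0.871 (WT) and 0.271 (AhR-KO) CPM without LPS and 1.90 (WT) and 1.04 (AhR-KO) CPM with it. It rose with LPS (1.25 and 2.10), while the Myc starts fell.

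In Rb1, with 20 tested other peaks, 5 were lower and 4 higher with LPS in WT and 8 and 4 in AhR-KO. Over all protein-coding genes 22.2% of other peaks were lower and 26.7% higher in WT, and 22.4% and 28.4% in AhR-KO. Its peak at 124 kb, an intron peak with medians of 0.269 (WT) and 0.939 (AhR-KO) CPM without LPS and 0.539 (WT) and 0.888 (AhR-KO) CPM with it, was higher in AhR-KO without LPS (1.71, adjusted p = 3.79e-05). In Mcm3, a helicase subunit gene, LPS lowered all 5 tested peaks in WT and 4 in AhR-KO. The one at 8.08 kb in a coding exon was higher in AhR-KO without LPS (0.91, adjusted p = 6.05e-05, medians 1.07 (WT) and 2.23 (AhR-KO) CPM without LPS and 0.474 (WT) and 0.582 (AhR-KO) CPM with it). The peak -0.974 kb from the Mcm7 start, upstream, fell with LPS by 2.36 in WT (adjusted p = 1.64e-13) and 2.75 in AhR-KO, from medians of 3.14 and 3.67 CPM to 0.618 and 0.579 CPM. In E2f2 the peak at 6.48 kb (chr4:136177346-136180394, coding exon) had 24 to 29.7 (median 26.5) CPM in WT and 25.3 to 35.9 (median 32.1) CPM in AhR-KO without LPS, and 11.9 to 14.6 (median 12.6) CPM in WT and 8.92 to 12.8 (median 10.9) CPM in AhR-KO with it. Treatments did not overlap, and it fell by 1.05 (WT) and 1.53 (AhR-KO) on the log2 scale, as did its start.

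Of the 7 other peaks that were higher in AhR-KO with LPS, the Cdk6 peak at 171 kb and 1 peak each of Mcm5 and Cdkn1a had the lowest p. The peak -5.03 kb from the Mcm5 start, whose call rests on a log2 fold change of 0.585 (adjusted p = 0.00152), had medians of 1.48 (WT) and 2.10 (AhR-KO) CPM without LPS and 2.24 (WT) and 3.23 (AhR-KO) CPM with it. Its call was lost without the filter on low counts (0.58), with only the 2 groups compared in the fit (0.56) and when WT LPS replicate 2, 3 or 5 or AhR-KO LPS replicate 2 or 3 was left out (0.51 to 0.58). That at 10 kb in Cdkn1a, in a UTR exon, was at 0.70 (adjusted p = 0.00152), with medians of 1.0 (WT) and 1.23 (AhR-KO) CPM without LPS and 2.29 (WT) and 3.75 (AhR-KO) CPM with it, and was lost without WT LPS replicate 3 (0.57).

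**Figure D5:**
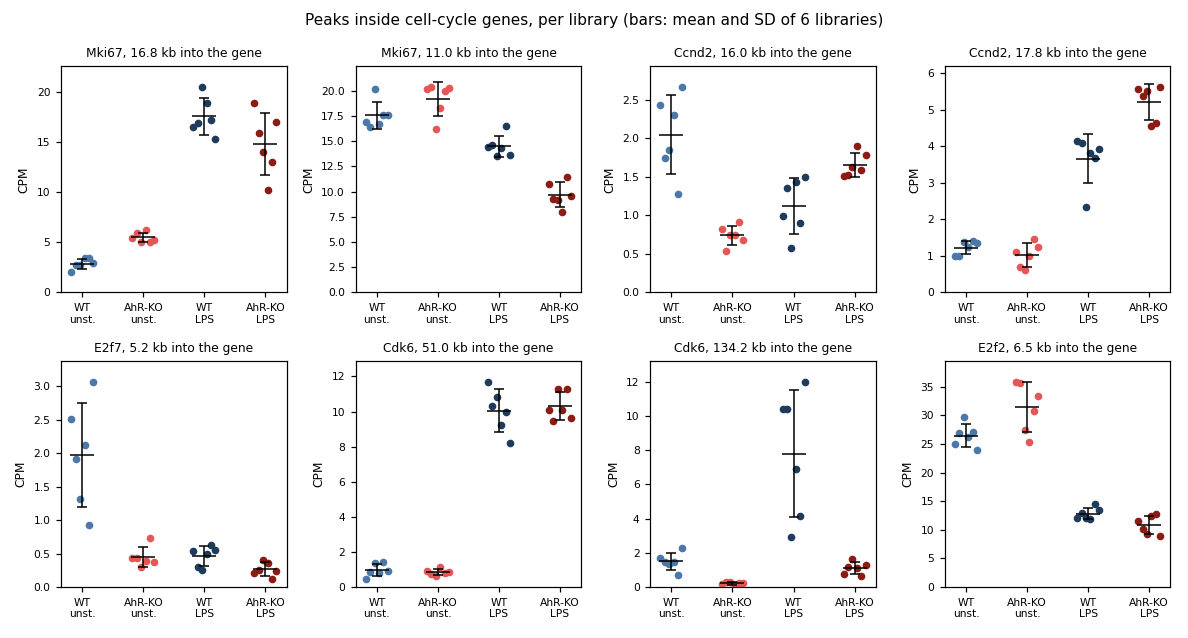
CPM of each library, on axes that start at 0, for 8 other peaks (Mki67 at 16.8 and 11 kb, Ccnd2 at 16 and 17.8 kb, E2f7 at 5.2 kb, Cdk6 at 51.0 and 134 kb, E2f2 at 6.5 kb from the start), with the mean and SD of 6 libraries per group as bars. The Cdk6 peak at 51.0 kb is low in both unstimulated groups and high in both LPS groups, while the peak at 134 kb is highest in WT LPS.

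The AhR core letters GCGTG lay within the central 300 bases of 16 of 118 other peaks of these genes that were at least that long (13.6%), against 17.2% of all 139121 tested peaks of that length. They lay in 2 of the 19 that were lower in AhR-KO in at least 1 treatment (10.5%), in 0 of the 11 that were higher and in 14 of the 88 that were not called between genotypes (15.9%), and in 14.7% of all 24880 tested peaks that were lower in AhR-KO.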

How the data were processed

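The authors processed 24 ATAC-seq libraries with the nf-core atacseq pipeline on mm10 (trimming, alignment, filtering, peak calling per library, then a consensus peak set), after demultiplexing with bcl2fastq 2.20.0. The deposited table holds raw read-pair counts per consensus peak from featureCounts 2.0.1, and its Start column counts from 0, so 1 was added. Per library, a deposited list of the authors' broad peaks gives the fold enrichment (a ratio) and the −log10 q-value of each peak. These lists were used here only to ask whether a start lay in a called peak. No replicates were pooled.

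Counts were tested with edgeR 4.0.16 (limma 3.58.1, R 4.3.3) on the whole table: peaks passing filterByExpr, TMM scaling, a quasi-likelihood fit over all 24 libraries by group, and Benjamini-Hochberg adjustment over all tested peaks. P-values are two-sided. Levels are CPM after TMM. TMM factors were 0.976 to 1.04. A standard error is the log2 fold change divided by the square root of F. The procedure was run on simulated counts with the same relative spread at every peak and with changes in AhR-KO unstimulated only. That setting differs from these data, so the run does not bear on false calls or scaling here. Libraries of 1 group were compared in 60 pairs for duplicates, and the lowest chi-square per peak was 1.26, above the 1 of sampling noise. The highest values were those of WT LPS replicate 3 with replicates 1, 2 and 6 of its group (7.14, 8.02 and 8.88).

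The members and lists were chosen with earlier results of these data known. Named are each TSS peak called in any comparison and, per comparison, the 3 called other peaks with the smallest p in each direction, plus peaks or genes said to be named after their values were seen. Role groups are described by counts, with their members as examples. Alternatives were RLE or loess scaling, no filter on low counts, DESeq2 1.42.0, other fold thresholds, fits of only the groups compared, replicate blocks, other definitions of a gene's peaks, and leaving out each library. The depth of the whole libraries is not given by the table, which counts reads in peaks only.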

Additional observations from a re-analysis of the deposited data

Results flagged for a closer look

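In 112 groups (28 named peaks in 4 groups of 6), 8 libraries stood apart from the rest of their group by Dixon's criterion, and chance gives about 1 in 20 groups. These were AhR-KO LPS replicate 3 at the main Myc TSS peak (12.1 CPM), WT unstimulated replicate 1 at the upstream Ccnd3 start (16.9 CPM) and replicate 2 at the Cdkn1a peak in a UTR exon (1.70 CPM), and replicate 3 of that group at the Mki67 peak 11 kb into the gene (20.2 CPM). In AhR-KO unstimulated they were replicate 5 at the E2f7 intron peak (0.729 CPM) and replicate 1 at the Rb1 intron peak (0.511 CPM). WT LPS replicate 3 stood apart at 2 peaks, the Cdk6 peak at 165 kb (7.29 CPM) and the Ccnd2 peak at 17.8 kb (2.33 CPM).

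The genotype effect differed between LPS and unstimulated cultures by the interaction test at 8 named peaks. The interaction was -0.69 and -0.65 at the Myc TSS peaks, -1.19 and -0.71 at the Mki67 peaks 16.8 and 11 kb into the gene, and -0.72 at the Ccnd3 peak 93.4 kb into the gene. It was 2.04 and 1.13 at the Ccnd2 peaks 16 kb into the gene and 2.57 kb upstream, and 1.06 at the Cdk6 peak at 112 kb.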

How the results depend on the processing

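Counts of DARs are given in the order AhR-KO against WT without and with LPS, the LPS effect in WT, the LPS effect in AhR-KO, and the interaction. At the TSS peaks they were 0, 2, 5, 7 and 2 and became 18, 7, 29, 31 and 7 with no minimum fold change. With a minimum fold change of 2 those with LPS became 1 (AhR-KO against WT), 1 (LPS in WT) and 2 (LPS in AhR-KO), and the interaction 0. With only the main TSS peak of each gene they became 1 for AhR-KO against WT with LPS, 3 for LPS in WT and 1 for the interaction, and with peaks within 500 bases of the outermost start 1 for AhR-KO against WT with LPS and 1 for the interaction. At the other peaks they were 24, 27, 74, 85 and 16. The genotype counts became 52 and 62 with no minimum fold change, all 5 became 11, 10, 40, 54 and 9 with a minimum of 2, and 90, 118, 270, 268 and 57 when a gene's peaks were those nearest to its start, 474 in all. Leaving out 1 library gave 0, 2, 5, 6 to 7 and 2 at TSS peaks and 22 to 27, 24 to 30, 73 to 79, 83 to 86 and 12 to 18 at other peaks. The median log2 fold change of the TSS peaks with LPS moved to -0.17 in WT and -0.11 in AhR-KO with loess offsets, and the genotype and interaction medians stayed within 0.1 of 0 in every setting run.

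With a replicate block the counts were 0, 2, 5, 7 and 2 at TSS peaks and 24, 28, 74, 85 and 16 at other peaks, and with the block within genotype 5, 7 and 2 and 75, 87 and 19 for the last 3 comparisons. Between unstimulated and LPS libraries of WT, same-numbered libraries deviated together by correlations of 0.037 to 0.29, of which 5 of 6 were over 0.1 and 4 of 6 were the best of that library, and in AhR-KO by 0.00375 to 0.171, with 2 of 6 over 0.1. Between genotypes they ranged from -0.128 to 0.219. Not every pair was over 0.1 in any of these, so the numbers were not taken to pair the libraries, and in WT a partial pairing cannot be told apart from a shared number. RLE size factors, no filter on low counts, DESeq2 and fits of only the groups compared changed none of these counts by more than 1.5 times. Of the values of named peaks under an alternative, 639 kept direction and call when a library was left out and 9 lost the call, and in other settings 296 kept and 4 lost it. Those that lost it kept their direction (Mcm7, Ccnd1, Mcm5 and Cdkn1a, given with their values in the report). None turned direction in the settings run. Depth limits the low peaks most, such as the E2f7 intron peak at 0.249 to 2.02 CPM by group medians.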
